A study of Homo sapiens with 16 samples.

Results

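RNA pulled down after labelling by a nuclear esterase was compared, across all genes and annotated gene classes, with RNA pulled down after labelling by the same esterase in the cytosol. The libraries were chosen by their labels alone: 3 nuclear and 2 cytosolic pull-downs of the 16 libraries in the series, with 1 input library for each of these groups as a check. In all groups, HEK293T cells (an adherent human embryonic kidney line) received AC-2, the labelling probe, at 50 µM for 3 min at 24 h after transfection, and 1 mM PMSF, a serine esterase inhibitor, ended the labelling. The nuclear group carried a plasmid for BS2, the esterase that activates the probe, with a nuclear localization, and the cytosolic group a plasmid for BS2 in the cytosol, both expressed transiently after lipofection. The cells of the non-transfected group, 3 pull-downs used here as background values, held no BS2. Labelled RNA was clicked to biotin, enriched and captured by its poly(A) tail before library preparation, so RNAs without a tail are poorly represented. Inputs were not enriched, and a single input has no replicate. The libraries are bulk, so fewer transfected cells and less labelled RNA per cell cannot be told apart.

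Proximity labelling marks molecules within reach of an enzyme held in one compartment. In human cells, newly made RNA, RNA of nuclear bodies, precursors of microRNAs and transcripts with retained introns lie in the nucleus, whereas mRNAs of ribosomal proteins and of abundant metabolic enzymes are exported and translated in the cytosol. Long non-coding RNAs (lncRNAs) as a class are known to be more nuclear than mRNAs, although some, such as NORAD and several hosts of small nucleolar RNAs (snoRNAs), are found mostly in the cytosol.

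Levels are given in CPM (read counts scaled to library size and to the submitters' TMM factor for each library). They are not corrected for transcript length and are therefore compared only within a gene. Changes are log2 values on the scale log2(CPM + 1), nuclear minus cytosolic, ± standard error, and calls have a limma p-value, Benjamini-Hochberg adjusted over all genes tested, under 0.05. Estimated depth, in units of 1e6 reads, ran from 9.455 to 11.92 for the nuclear pull-downs and was 11.23 and 13.02 for the cytosolic pair. The nuclear input had 6.335 and the cytosolic input 13.01 in the same units. The nuclear pull-downs held 21551 to 22195 genes above 0, against 20690 and 21003 in the cytosolic ones. All 9 markers that HEK293T cells express were found, among them VIM at 179.5 CPM in nuclear and 276 CPM in cytosolic pull-downs and PAX2 at 4.73 and 5.16 CPM. The 14 measured markers of other cell types summed to 20.03 to 23.2 CPM in nuclear and 20.3 to 21.4 CPM in cytosolic pull-downs. Of these, KRT5 was at 0 in all 5 libraries, and the collagen mRNAs COL1A1 and COL3A1 made up most of the sum. The monocyte marker CD14 was called higher, with means of 2.52 CPM in nuclear and 0.979 CPM in cytosolic pull-downs, and lost the call without cytosolic replicate 1. COL3A1 was called lower, at 3.38 and 6.43 CPM, and lost it without cytosolic replicate 2, and the part of these cell types in other results was not tested. No label ties the biological replicates to cultures of their own, and the p-values therefore reflect library-to-library spread that can be technical.

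Hosts of microRNAs were among the lncRNAs with the largest rises. These are long transcripts from which the Drosha complex cuts microRNA hairpins in the nucleus. RefSeq places mature microRNAs inside 19 of the 21 tested hosts by coordinates and strand (GRCh38.p14), and the usual guide arms of 5 called hosts are shown because these are the products the host RNAs carry. Capitals mark the seed, bases 2 to 8 from the 5′ end, which pairs with target mRNAs.
miR-34a-5p in MIR34AHG, chromosome 1: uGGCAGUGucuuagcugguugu
miR-503-5p in MIR503HG, chromosome X: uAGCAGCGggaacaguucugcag
miR-17-5p in MIR17HG, chromosome 13: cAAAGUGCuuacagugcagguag
miR-20a-5p in MIR17HG, chromosome 13: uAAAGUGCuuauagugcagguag
miR-18a-5p in MIR17HG, chromosome 13: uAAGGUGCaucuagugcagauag
miR-19a-3p in MIR17HG, chromosome 13: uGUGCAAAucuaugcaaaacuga
miR-19b-3p in MIR17HG, chromosome 13: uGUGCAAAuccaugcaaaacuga
miR-92a-3p in MIR17HG, chromosome 13: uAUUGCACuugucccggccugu
miR-221-3p in MIR222HG, chromosome X: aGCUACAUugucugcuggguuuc
miR-222-3p in MIR222HG, chromosome X: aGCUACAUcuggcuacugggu
miR-22-3p in MIR22HG, chromosome 17: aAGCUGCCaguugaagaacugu
The seeds fall into 8 kinds. miR-17-5p and miR-20a-5p share AAAGUGC, miR-19a-3p and miR-19b-3p share GUGCAAA, and miR-221-3p and miR-222-3p share GCUACAU, while the others stand alone. The mature microRNAs themselves were not measured, since only tailed RNA was sequenced.

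Of 16133 genes that reached 1 CPM in 2 or more pull-downs, 1640 were higher in the nuclear than in the cytosolic pull-downs (10.2%) and 3747 were lower (23.2%), 33.4% in either direction. The rises were fewer and larger: 440 called rises (2.73%) were at least 2-fold, against 27 called falls (0.167%). The direction of the many small falls depended on scaling, because the deposited values summed to 8.47e+05 to 9.15e+05 CPM in nuclear and 1.03e+06 to 1.05e+06 CPM in cytosolic pull-downs. The median change over all genes was -0.12 as deposited and 0.10 after all libraries were set to a common total. Counts were then 3012 higher and 936 lower. A common total undoes the submitters' TMM scaling. With median-of-ratios scaling they were 2114 and 2189, and with quantile normalization 1788 and 1708. Of the genes called as deposited, 1289 of 1640 rises and 787 of 3747 falls were called in the same direction under all 4 other scalings. List medians below are therefore also given relative to the all-gene median. Without cytosolic replicate 1 the counts were 883 higher and 1871 lower, and without cytosolic replicate 2 they were 797 and 1460. Between libraries, the median absolute log2 difference was 0.152 to 0.255 within the nuclear pull-downs, 0.0973 within the cytosolic pair and 0.258 to 0.356 between the groups.

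By gene class, lncRNAs rose and protein-coding genes fell more often. Of 2097 lncRNAs tested, 428 were higher (20.4%) and 41 were lower (1.96%), with a median change of 0.17, which is 0.28 above the all-gene median. Of 14010 protein-coding genes, 1209 were higher (8.63%) and 3705 lower (26.4%), with a median of -0.15 that turned to 0.07 under the common total. The lncRNA median was positive under every scaling but came down to 0.02 with quantile normalization, where 296 were higher and 69 lower, and 292 of the 428 rises were called under all 4 other scalings. Without cytosolic replicate 1 or cytosolic replicate 2, 246 or 226 lncRNAs were called higher and 15 or 8 lower. Without nuclear replicate 2, 21 were lower. The filter can admit a scarce gene through nuclear libraries alone, whereas fewer cytosolic libraries were there to admit one, which can favour rises among scarce genes. LncRNAs with a mean under 5 CPM over all pull-downs held 294 of the 428 rises and 11 of the 41 falls. With at least 5 CPM required by the filter, 193 lncRNAs were higher and 37 lower. How many rises depend on entry through nuclear libraries alone was not tested.

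**Figure D1:**
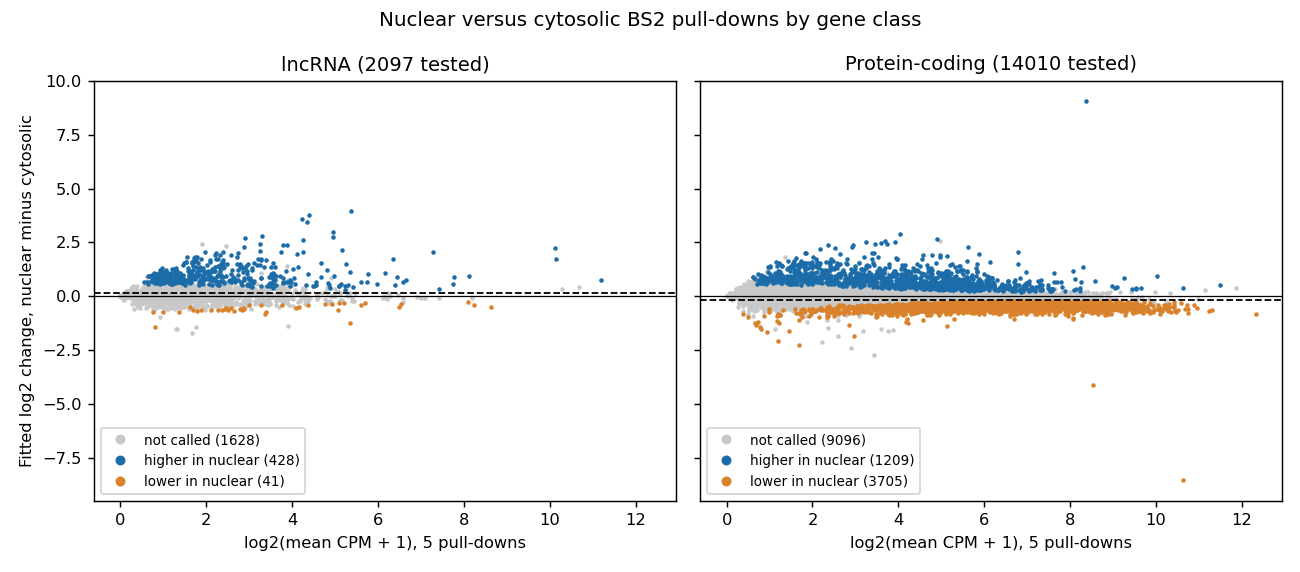
Fitted log2 change (nuclear minus cytosolic) of each tested gene against log2 of its mean CPM + 1 over the 5 pull-downs, for lncRNAs (left) and protein-coding genes (right). Blue points are called higher and orange points lower in nuclear pull-downs. The dashed line is the class median, 0.17 for lncRNAs and -0.15 for protein-coding genes. Most large lncRNA changes lie above 0, while the protein-coding falls form a dense band just below 0.

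The share of all CPM that fell on lncRNAs was 2.67%, 2.67% and 2.73% in the nuclear pull-downs, against 1.59% and 1.595% in the cytosolic ones. The groups did not overlap, although an exact permutation test over 3 against 2 libraries gives p = 0.2, the smallest it can give with 10 splits. The share was 1.399 ± 0.0872% in the non-transfected pull-downs (SD, n = 3), and 1.57% in the nuclear and 1.42% in the cytosolic input. Without MALAT1 and NEAT1 it was 2.49 ± 0.0459% in nuclear pull-downs (SD, n = 3) and 1.54 ± 0.00109% in cytosolic ones (SD, n = 2).

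Most lncRNAs are scarce, and the calls varied with level in both classes, so the classes were set side by side at matched levels. Below 5 CPM (mean of the 12 pull-downs), 17.8% of 1654 lncRNAs and 12.99% of 2741 protein-coding genes were called higher. Between 20 and 100 CPM the shares were 34.8% of 89 lncRNAs and 7.48% of 5759 protein-coding genes. Above 100 CPM they were 39.1% of 23 lncRNAs and 2.95% of 2473 protein-coding genes, and 64.2% of those protein-coding genes were lower. The share of lncRNAs called higher thus lay above that of protein-coding genes in each level range. Reads of overlapping genes may have been divided in ways that cannot be checked here, since strand use in counting is not given in the sources used here. Among the 812 lncRNAs that overlap no protein-coding gene, 161 were higher (19.8%) and 16 lower (1.97%), a split chosen after seeing the data. The 836 that overlap one on the opposite strand had 145 higher (17.3%), and the 316 that overlap one on the same strand had 91 (28.8%).

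The small RNA classes were thinly covered after poly(A) capture. Of 5 snoRNA genes tested, SCARNA12, a guide RNA of Cajal bodies, rose by 1.46 ± 0.263 (limma adjusted p = 0.000974), at 1.17, 2.78 and 2.57 CPM in nuclear against 0 and 0.253 CPM in cytosolic pull-downs, and the other call had only a clone name. Of 9 snRNA genes, RNU6-9, a U6 copy with many near-identical relatives, was called higher at 1.698, 2.40 and 1.45 CPM against 0 in both cytosolic libraries. None of 7 rRNA genes and neither of the 2 mitochondrial tRNA genes was called by limma, and 0 of them had an unadjusted p under 0.05. In the nuclear pull-downs 3 reads are 0.213 to 0.29 CPM, and in the cytosolic ones 0.242 and 0.277 CPM.

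Of 21 tested hosts (41 in the table), 8 were called higher (38.1%) and 1 lower, beside 20.4% and 1.96% of all lncRNAs. Their median change was 0.39, 0.51 above the all-gene median. The median was positive under every scaling, and 7 to 9 hosts were higher with any 1 library left out. MIR34AHG (chromosome 1, 9148011 to 9198906), which carries the p53-induced tumour suppressor miR-34a shown above, was at 27.5, 27.1 and 30.7 CPM in nuclear pull-downs, against 1.66 and 1.21 CPM in cytosolic pull-downs. The groups lay far apart, a change of 3.60 ± 0.186 (limma adjusted p = 9.78e-09). The single inputs held 3.69 CPM (nuclear) and 4.17 CPM (cytosolic). In the non-transfected pull-downs it averaged 5.74 CPM, between both BS2 groups.

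MIR17HG (chromosome 13, 91347820 to 91354579), the host of the oncogenic miR-17 to miR-92a cluster, was at 32.8, 25.2 and 24.5 CPM in nuclear and 2.67 and 4.76 CPM in cytosolic pull-downs. It rose by 2.62 ± 0.224 (limma adjusted p = 2.29e-06). MIR503HG (chromosome X, 134543337 to 134546632), host of the cell-cycle regulator miR-503, was at 12.9, 13.8 and 14.7 CPM in nuclear against 0.829 and 1.53 CPM in cytosolic pull-downs, a change of 2.78 ± 0.213. Neither host overlapped between the groups. MIRLET7A1HG (chromosome 9, 94176458 to 94177892) stood at 5.03, 6.45 and 5.69 CPM in nuclear and at 0.553 and 0.806 CPM in cytosolic pull-downs. No mature microRNA lies within its annotated span. MIR222HG, which holds miR-221 and miR-222, changed by 1.92 ± 0.199 and MIR22HG by 1.90 ± 0.242, with 5.50 to 6.68 and 6.92 to 7.82 CPM in nuclear against 0.645 to 1.13 and 1.05 to 1.47 CPM in cytosolic pull-downs. MIR22HG overlaps a protein-coding gene on the opposite strand. All 6 of these hosts were also higher in the input-corrected comparison, where (nuclear pull-down minus its input) is set against (cytosolic pull-down minus its input). These 6 were 6 of 21 hosts, beside 84 of 2097 lncRNAs and 1.69% of all genes, in a comparison that reuses the same pull-down values. MIR4453HG rose by 0.77 ± 0.168 and MIRLET7BHG by 0.91 ± 0.231. MIRLET7BHG also overlaps a protein-coding gene on the opposite strand, and its limma adjusted p was 0.0757 without cytosolic replicate 2. The single fall, MIR924HG at -0.36 ± 0.115, was not called without nuclear replicate 2 or 3, without either cytosolic library, or under any other scaling.

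Nuclear-retained lncRNAs gave 5 rises among 13 tested (38.5%) and no fall by limma (1 fall at an unadjusted p under 0.05). Of all lncRNAs, 20.4% were higher and 1.96% lower. The list median of 0.39 stayed positive under every scaling. The median was 0.23 without nuclear replicate 1, where there was also 1 fall, and 0.26 without cytosolic replicate 1. Leaving out cytosolic replicate 2 gave 3 rises. MALAT1 (chromosome 11, 65497688 to 65506516), a component of nuclear speckles, was at 1849, 1435 and 1437 CPM in nuclear and 439.6 and 491 CPM in cytosolic pull-downs, a change of 1.75 ± 0.128 (limma adjusted p = 4.95e-07). NEAT1 (chromosome 11, 65422774 to 65445540), the scaffold of paraspeckles, was at 231, 214 and 221 CPM in nuclear against 49.1 and 56.9 CPM in cytosolic pull-downs, a change of 2.05 ± 0.130. The cytosolic pull-downs lay near or below the non-transfected means of 505 CPM for MALAT1 and 93.8 CPM for NEAT1. XIST (chromosome X, 73820651 to 73852723), the RNA that coats the inactive X chromosome and no member of the list, was at 1788, 1659 and 1441 CPM in nuclear and 324 and 358.5 CPM in cytosolic pull-downs. It rose by 2.25 ± 0.121 (limma adjusted p = 1.37e-08), and its non-transfected mean was 1151 CPM. Its cytosolic values therefore lay further from that mean than its nuclear ones. KCNQ1OT1, an imprinted antisense RNA, changed by 1.05 ± 0.284, FTX by 0.51 ± 0.142 and MIAT by 0.79 ± 0.283. KCNQ1OT1 had a limma adjusted p of 0.0947 without cytosolic replicate 2, FTX lost its call without cytosolic replicate 1, and MIAT lost it without nuclear replicate 1 or 2 or cytosolic replicate 2, where it moved to 0.42.

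The lncRNAs that host snoRNAs split in both directions, whereas 20.4% of all lncRNAs rose and 1.96% fell. Of 27 tested, 10 rose (37.0%) and 7 fell (25.9%), and their median of 0.08 was positive under every scaling but turned to -0.05 without nuclear replicate 3. Under the common total and under quantile normalization 2 fell. Without nuclear replicate 2, or without either cytosolic library, 4 fell. SNHG26 had 11.2, 15.1 and 11.1 CPM in nuclear and 2.77 and 3.47 CPM in cytosolic pull-downs, a change of 1.70 ± 0.195. SNHG10 changed by 1.37 ± 0.190, SNHG4 by 1.05 ± 0.0887 (limma adjusted p = 1.94e-06) and SNHG17 by 0.92 ± 0.113. GAS5, a growth-arrest transcript with a short half-life, was at 347, 340.5 and 331 CPM in nuclear and 179.7 and 177 CPM in cytosolic pull-downs, and rose by 0.92 ± 0.0881. SNHG1 rose by the same 0.92 ± 0.0845, at 264.8 to 272 CPM against 139 and 144 CPM. In contrast DANCR (chromosome 4, 52712404 to 52720351) fell to 28.4, 22.6 and 29.7 CPM in nuclear pull-downs, against 42.02 and 41.0 CPM in cytosolic ones, a change of -0.62 ± 0.132 (limma adjusted p = 0.00293). SNHG5 changed by -0.50 ± 0.114, SNHG29 by -0.49 ± 0.0837 and SNHG16 by -0.41 ± 0.0857. DANCR was called lower under all 4 other scalings, whereas SNHG5 lost its call under the common total, SNHG29 under quantile normalization and SNHG16 under both. Several of these hosts are also in the list of cytosolic lncRNAs, of which 3 of 15 rose and 7 fell. Under the common total 5 rose and 2 fell, and with quantile normalization 3 rose and 2 fell. That list's median was -0.25 and turned positive with quantile normalization, and 4 fell without nuclear replicate 2 or either cytosolic library. NORAD, a cytosolic RNA that binds PUMILIO proteins, was called lower at -0.25 ± 0.0913 but was positive under quantile normalization and lost its call under every other scaling, without nuclear replicate 2 or 3 and without either cytosolic library.

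Named lncRNAs of other kinds mostly rose where they were called, as did lncRNAs as a class (20.4% higher, 1.96% lower). The shares of antisense and LINC genes called higher lay below that of the class, and that of divergent transcripts lay near it. Of 383 tested antisense lncRNAs, 67 were higher (17.5%) and 10 lower, of 219 LINC genes 34 were higher (15.5%) and 3 lower, and of 55 divergent-promoter transcripts 13 were higher (23.6%) and 1 lower. Their medians of 0.12, 0.14 and 0.17 stayed above 0 except with quantile normalization, where they lay at -0.0022, 0 and 0.0017. Leaving out cytosolic replicate 1 gave 42 antisense, 17 LINC and 8 divergent transcripts higher, and without cytosolic replicate 2 the counts were 38, 19 and 7. GABPB1-AS1 had 54.6, 51.5 and 46.3 CPM in nuclear and 10.8 and 10.4 CPM in cytosolic pull-downs, a change of 2.16 ± 0.161 (limma adjusted p = 6.18e-07). SLC9A3-AS1 changed by 2.40 ± 0.240, THUMPD3-AS1 by 1.51 ± 0.125 and ZKSCAN2-DT by 1.69 ± 0.189. Antisense genes overlap their partners, so their reads are uncertain. LINC02410 had 11.2, 15.4 and 13.1 CPM in nuclear and 1.66 and 1.61 CPM in cytosolic pull-downs, a change of 2.42 ± 0.185. It was all but absent from non-transfected pull-downs at 0.0261 CPM, and from the non-transfected input at 0.0912 CPM. The single nuclear and cytosolic inputs held 3.07 and 2.20 CPM, so this contrast with non-transfected cells was present before enrichment. LINC02746 went the other way, at 35.7, 18.6 and 23.2 CPM in nuclear against 66.8 and 53.8 CPM in cytosolic pull-downs, a change of -1.24 ± 0.241.

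**Figure D2:**
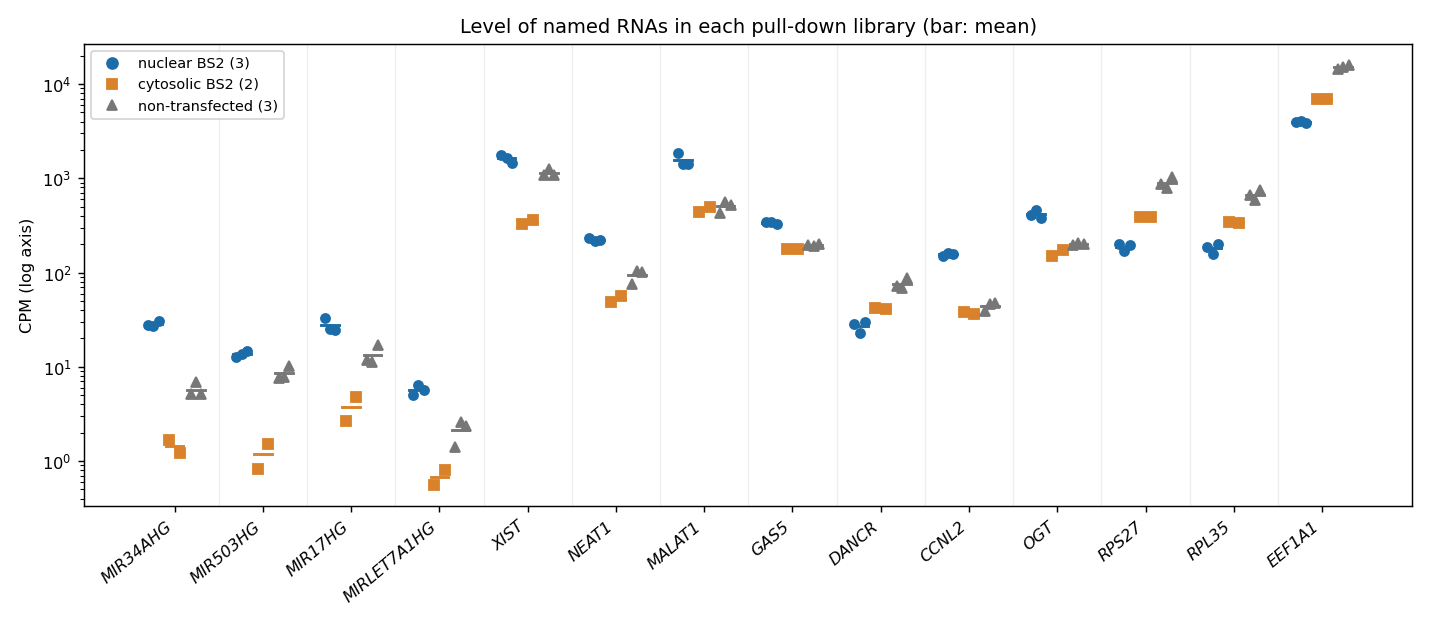
CPM (log axis) of 14 RNAs in each nuclear (circles, 3 libraries), cytosolic (squares, 2) and non-transfected pull-down (triangles, 3). Horizontal bars are group means. The nuclear circles lie above the cytosolic squares for the first 8 RNAs and for CCNL2 and OGT, and below them for DANCR, RPS27, RPL35 and EEF1A1.

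Among the mRNA lists, that of mRNAs known to keep detained introns, a spliced but incompletely processed pool held in the nucleus, had the highest median. Of 25 tested, 12 were higher (48.0%) and 1 lower, beside 10.2% and 23.2% of all genes. Their median was 0.33, 0.45 above the all-gene median and positive under every scaling. Under the common total 20 were higher, with median-of-ratios scaling 18 and with quantile normalization 21. After input correction 6 of the 25 were higher, beside 1.69% of all genes. CCNL2 (chromosome 1, 1385711 to 1399328), a cyclin that works with splicing kinases, was at 149, 162 and 157.7 CPM in nuclear and 37.97 and 36.4 CPM in cytosolic pull-downs. It rose by 2.04 ± 0.108 (limma adjusted p = 1.27e-08) and did so beyond its inputs (1.68 ± 0.201, limma adjusted p = 0.000611). OGT, the O-GlcNAc transferase whose intron detention answers to sugar supply, was at 412, 458 and 381 CPM in nuclear and 150.7 and 173 CPM in cytosolic pull-downs, a change of 1.36 ± 0.0947. RSRP1 changed by 1.62 ± 0.0987 and MDM4, an inhibitor of p53, by 1.14 ± 0.123. The helicase mRNA DDX39B changed by 0.87 ± 0.0782, at 718 to 759 CPM against 396 and 419 CPM, and the overlapping read-through gene ATP6V1G2-DDX39B by -1.36 ± 0.238, so the division of reads between them is uncertain. The CDC2-like kinases CLK2, CLK1 and CLK3, which phosphorylate splicing factors, changed by 0.85 ± 0.101, 0.70 ± 0.106 and 0.34 ± 0.104. PNISR changed by 0.82 ± 0.120, RBM5 by 0.71 ± 0.0892, CCNL1 by 0.64 ± 0.112 and DDX5 by 0.33 ± 0.0887. The inputs of CCNL1 differed as well, at 82.8 CPM (nuclear) and 54.9 CPM (cytosolic), and its input-corrected change was 0.06 ± 0.207 (limma adjusted p = 0.902). The calls of CLK3 and DDX5 were lost without either cytosolic library. TRA2B, lower at -0.29 ± 0.0890, was positive under quantile normalization and lost its call under every other scaling. Of 12 SR protein mRNAs, SRSF5 rose by 0.67 ± 0.0892 and SRSF1, SRSF8 and SRSF12 were called lower, a balance that turned to 3 higher and 0 lower by limma under the common total and to 7 higher and 1 lower with quantile normalization. SRSF1 and SRSF8 lost their calls under every other scaling, SRSF12 lost it under the common total, none of the 3 kept it without either cytosolic library, and SRSF1 was positive under quantile normalization.

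Zinc finger mRNAs had fewer called falls than genes at large. Of 448 tested ZNF genes, 50 were higher (11.2%) and 32 lower (7.14%), with a median of 0.02, 0.14 above the all-gene median. The median was positive under every scaling but turned to -0.0096 without nuclear replicate 2. The counts were 120 higher and 0 lower by limma under the common total, 81 and 6 with median-of-ratios scaling, and 64 and 6 with quantile normalization. Among all genes 23.2% were lower, but that share varied with level. It was 2.01% of protein-coding genes under 5 CPM, 10.0% at 5 to 20 CPM and 30.5% at 20 to 100 CPM. ZNF mRNAs were not compared at matched level. When cytosolic replicate 1 was left out, 20 were higher and 7 lower, and without cytosolic replicate 2, 23 and 1. Without nuclear replicate 2 the counts were 29 and 20, and without nuclear replicate 1, 53 were lower. Between the single inputs the median ZNF difference was 0.11, against -0.0088 over all genes. After input correction the ZNF median was -0.06, with 3 of 448 higher and 3 lower. Of all genes 1.69% were then higher and 1.88% lower. ZNF121 was at 364, 366 and 301 CPM in nuclear and 148 and 153 CPM in cytosolic pull-downs, a change of 1.18 ± 0.0893. ZNF331 changed by 1.42 ± 0.177 and ZNF692 by 1.01 ± 0.154.

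The mRNAs of cytosolic ribosomal proteins fell as a block, where 23.2% of all genes and 64.2% of protein-coding genes above 100 CPM were lower. Of 79 tested, 78 were lower (98.7%) and none was higher by limma (0 at an unadjusted p under 0.05), with a median of -0.63, 0.51 below the all-gene median. The median was negative under every scaling, -0.38 with 56 lower under the common total and -0.33 with 42 lower under quantile normalization. RPS27 (chromosome 1, 153990755 to 153992155) was at 199.7, 171 and 195.6 CPM in nuclear against 384 and 388 CPM in cytosolic pull-downs, a change of -1.03 ± 0.112 (limma adjusted p = 2.29e-05). RPL35 changed by -0.91 ± 0.116 and RPL26 by -0.85 ± 0.0956. The smallest called fall was that of RPS19, at -0.38. Between the inputs these mRNAs had a median difference of 0.02. After input correction 27 of 79 were lower, beside 1.88% of all genes. They took 3.71 ± 0.371% of CPM in nuclear (SD, n = 3) and 4.84 ± 0.121% in cytosolic pull-downs (SD, n = 2), against 9.35 ± 0.543% in non-transfected pull-downs (SD, n = 3) and 9.48% in the nuclear and 9.22% in the cytosolic input. Both BS2 groups therefore lay below the non-transfected pull-downs. Many of these mRNAs have processed pseudogenes, which can share reads with them.

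Other parts of the translation machinery went the same way, again beside 23.2% of all genes and 64.2% of protein-coding genes above 100 CPM lower. Of 38 translation factor mRNAs 30 were lower (78.9%) and 1 was higher, with a median of -0.48 that was negative under every scaling. Under the common total 17 were lower and 1 higher, and with quantile normalization 11 were lower and 3 higher. EEF1A1 (chromosome 6, 73515750 to 73523797), the elongation factor that brings tRNAs to the ribosome and a gene with near-identical copies, was at 3929, 4012 and 3893 CPM in nuclear and 7024 and 6918 CPM in cytosolic pull-downs. It fell by 0.82 ± 0.0877 on the log2 scale (change -0.82, limma adjusted p = 2.04e-05). The poly(A)-binding protein mRNA PABPC1 changed by -0.84 ± 0.0870 and TPT1 by -0.78 ± 0.0961. EIF4A2 was the exception, at 637, 574 and 506 CPM in nuclear and 405 and 409 CPM in cytosolic pull-downs, a change of 0.48 ± 0.0947 (limma adjusted p = 0.0017).

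Abundant housekeeping mRNAs were lower too. For comparison, 23.2% of all genes were lower, 30.5% of protein-coding genes at 20 to 100 CPM and 64.2% of those above 100 CPM. The lists were not compared with other mRNAs at matched level, so a part of level in these counts was not tested. All 8 subunits of the TRiC chaperonin, which folds actin and tubulin, were lower, with a median of -0.41, and CCT5 changed by -0.52 ± 0.0721. Their median was negative under every scaling, but 3 were lower under the common total and 0 with quantile normalization, and 5 without cytosolic replicate 2. Of 17 actin, tubulin and related mRNAs 14 were lower (82.4%), led by PFN1 at -0.85 ± 0.130 and TUBA1A at -0.76 ± 0.0928, and ACTB, which lost its call under quantile normalization, changed by -0.60 ± 0.0985. Of the 17, 8 were lower without cytosolic replicate 1. Of 15 heat shock mRNAs 13 were lower (86.7%), with HSPA8 at -0.68 ± 0.0791 and HSPA1B, a gene with a near-identical copy, at -0.87 ± 0.116. The inputs of HSPA1B differed in the same direction, at 1361 CPM (nuclear) and 1991 CPM (cytosolic), and its input-corrected change of -0.32 ± 0.214 was not called. After input correction 1 of the 15 was lower. Of 17 glycolytic mRNAs 13 were lower (76.5%), and the ER and secretory list had 32 of 42 (76.2%). HK1, which starts glycolysis, changed by -0.69 ± 0.0806 and LDHA by -0.67 ± 0.0838, whereas GAPDH at -0.55 ± 0.119 lost its call under the common total and quantile normalization. The medians of these 4 lists were negative under every scaling, and under the common total 6, 9, 5 and 19 members were lower. After input correction 4 of 17 actin and tubulin mRNAs and 1 of 17 glycolytic mRNAs were lower. So were 2 of 42 ER and secretory, 1 of 8 TRiC and 1 of 36 proteasome mRNAs, beside 1.88% of all genes. Median differences between the inputs, in the same order, were 0.03, -0.12, -0.09, -0.07 and -0.10. For the heat shock list that median was -0.19. Proteasome mRNAs had 21 of 36 lower (58.3%) and 1 under the common total, and 12, 9 and 7 without nuclear replicate 2, cytosolic replicate 1 and cytosolic replicate 2.

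mRNAs for mitochondria, made in the nucleus and translated in the cytosol, behaved alike. Their shares below stand beside 23.2% of all genes lower, and 30.5% of protein-coding genes at 20 to 100 CPM. Above 100 CPM that share was 64.2%, and these lists were not compared at matched level either. Of 80 tested oxidative phosphorylation mRNAs 43 were lower (53.8%) and 3 higher, and of 78 mitochondrial ribosomal protein mRNAs 39 were lower (50.0%) and 2 higher. COX5A was at 74.2, 65.2 and 74.0 CPM in nuclear and 113 and 108.5 CPM in cytosolic pull-downs, a change of -0.63 ± 0.114, and NDUFA6 changed by -0.69 ± 0.118. Both medians, -0.35 and -0.31, were negative under every scaling, and under the common total 7 and 3 members were lower. Without cytosolic replicate 1 the counts lower were 16 and 23, without cytosolic replicate 2 they were 15 and 11, and without nuclear replicate 2 there were 28 oxidative phosphorylation mRNAs. As a share of CPM, oxidative phosphorylation mRNAs took 0.616%, 0.605% and 0.696% in nuclear and 0.697% and 0.679% in cytosolic pull-downs. By this measure the groups overlapped. After input correction 5 of 80 and 4 of 78 were lower, beside 1.88% of all genes. Median differences between the inputs were 0.06 and 0.04. Among the pull-down rises was MRPS24, at 355, 529 and 474 CPM in nuclear and 291 and 255 CPM in cytosolic pull-downs, a change of 0.71 ± 0.165. Its limma adjusted p was 0.0655 without cytosolic replicate 2, and its non-transfected mean was 50.8 CPM.

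The 13 mRNAs encoded by the mitochondrial genome, which lie in the mitochondrial matrix, showed little difference between the pull-downs. Limma called 2 lower (MT-ATP8 at -0.66 ± 0.199 and MT-ND5 at -0.61 ± 0.191), both lost under every other scaling, without nuclear replicate 2 or 3 and without either cytosolic library, and without nuclear replicate 1 the count was 9. Together they made up 0.998%, 0.725% and 0.906% of CPM in nuclear and 0.845% and 0.931% in cytosolic pull-downs, so the groups overlapped. The inputs differed more, with 1.84% in the nuclear and 0.602% in the cytosolic input, and MT-CYB stood at 1454 and 388 CPM there. The input-corrected comparison therefore called 12 of 13 lower, with a median of -2.08, a value that rests on 2 single input libraries.

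**Figure D3:**
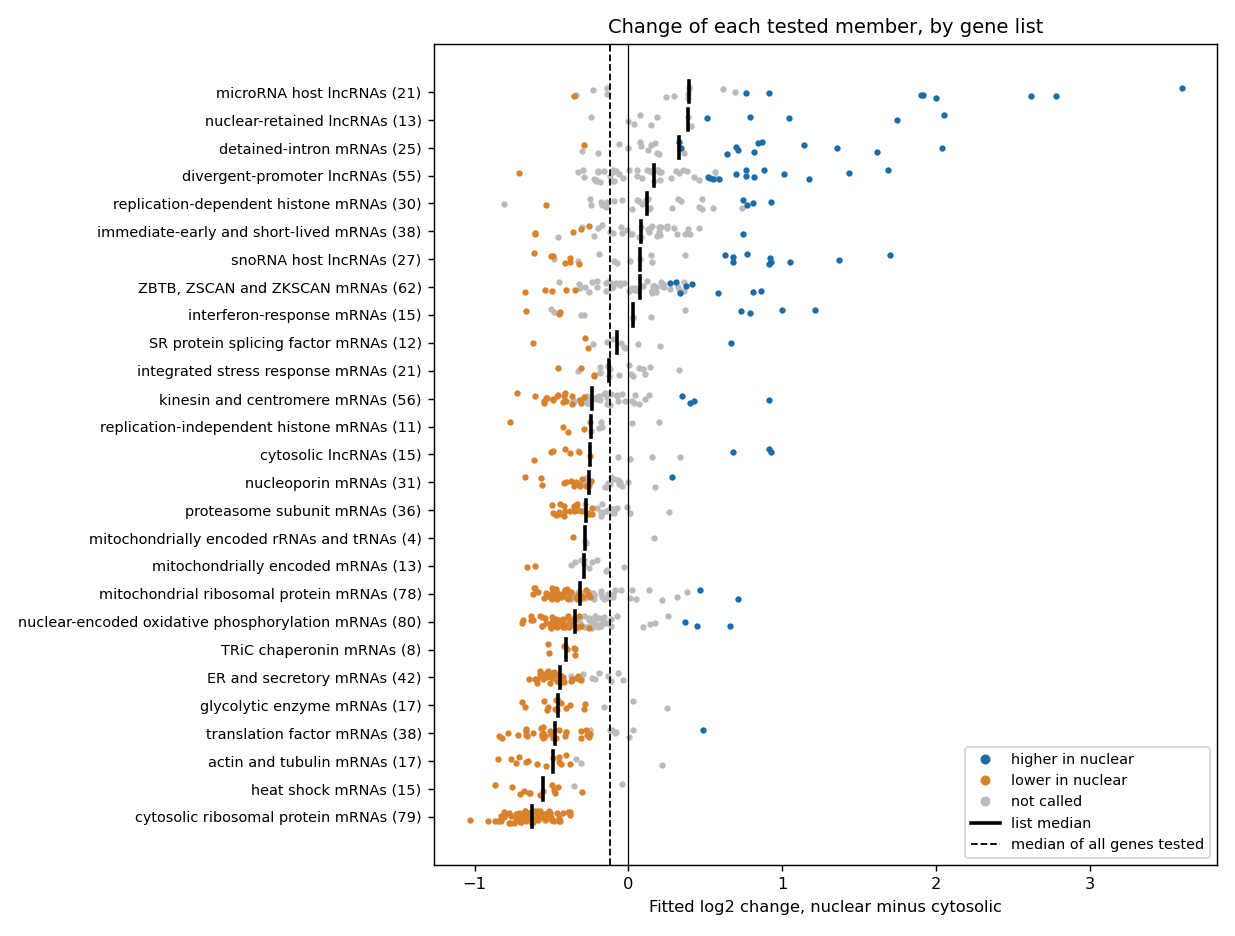
Fitted log2 change (nuclear minus cytosolic) of each tested member of 27 gene lists, ordered by median. Blue points are called higher, orange points lower and grey points not called. Black bars are list medians, and the dashed line is the median of all genes tested, -0.12. MicroRNA hosts (median 0.39), nuclear-retained lncRNAs (0.39) and detained-intron mRNAs (0.33) stand at the top, and ribosomal protein mRNAs (-0.63) at the bottom.

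Individual protein-coding genes outside the lists included a few that differed by far more than the rest, and these differed in the inputs as well. IQCA1 (chromosome 2, 236324147 to 236507542) was at 631, 545 and 468.7 CPM in nuclear pull-downs and at 0 in both cytosolic ones, at least 1983-fold higher against 3 reads of a cytosolic library. Its inputs held 246 CPM (nuclear) and 0.0759 CPM (cytosolic). GMIP (chromosome 19, 19629476 to 19643667) was at 8.52, 9.83 and 11.1 CPM in nuclear against 3960 and 3962 CPM in cytosolic pull-downs, and at 13.4 CPM in the nuclear and 1504 CPM in the cytosolic input. EXTL3 was at 42.3, 47.9 and 54.2 CPM in nuclear against 860.0 and 849 CPM in cytosolic pull-downs, and at 53.8 and 363 CPM in the inputs. All 3 genes thus differed in the same direction in inputs and pull-downs. Whether their reads come from the gene or from transfected sequence was not tested.

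Other rises of protein-coding genes included LY6G5B (chromosome 6, 31670167 to 31673776), a member of the Ly6 family in the major histocompatibility region. It was at 22.8, 24.4 and 24.9 CPM in nuclear and 2.33 and 2.40 CPM in cytosolic pull-downs, a change of 2.90 ± 0.204 (limma adjusted p = 3.76e-07). PGGHG changed by 2.55 ± 0.246, FAM156A by 2.51 ± 0.259 and YJEFN3 by 2.47 ± 0.168, and all were called after input correction. U2AF1L5 at 2.64 and POC1B-GALNT4 at 2.54 were called as well, but both share reads with near-identical or neighbouring genes, both moved to 1.37 without 1 cytosolic library (replicate 1 for U2AF1L5, replicate 2 for POC1B-GALNT4), and neither was then called. POC1B-GALNT4 also lost its call without nuclear replicate 2 or 3. Falls outside the lists included IRS4, an insulin receptor substrate abundant in this line, at 66.7, 77.8 and 69.2 CPM in nuclear against 156 and 146.5 CPM in cytosolic pull-downs, a change of -1.08 ± 0.106. IGFBP5, a secreted binding protein for insulin-like growth factors, changed by -1.07 ± 0.0921 and KCTD12 by -1.05 ± 0.135.

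The inputs were set beside all pull-down calls to see how much of the difference was present before enrichment. Genes called higher had a median change of 0.75 in the pull-downs and a median difference of 0.07 in the inputs, and genes called lower had -0.44 and -0.06. After input correction, 1544 of the 1640 rises were above 0 and 213 were called higher. Of the 3747 falls, 3627 were below 0 and 250 were called lower. None was called the other way by limma (3 rises and 1 fall were opposite at an unadjusted p under 0.05). Both comparisons use the same pull-down values, so most of this match in direction was fixed in advance. In all, the input-corrected fit called 272 genes higher (1.69%) and 304 lower (1.88%), 3.57% in either direction, of which 84 and 13 were lncRNAs. Its counts rest on single libraries: without nuclear replicate 1 they were 521 and 938, without nuclear replicate 2 163 and 150, without nuclear replicate 3 344 and 623, without cytosolic replicate 1 100 and 45, and without cytosolic replicate 2 117 and 57. The common total gave 472 and 111, so which direction held more genes depended on scaling. Between the inputs, 199 genes were at least 2-fold higher (1.23%) and 240 lower (1.49%). Across genes, Pearson's r between pull-down and input differences was 0.14 (16133 genes, which are not replicates and share libraries). Among the 11482 genes with at least 5 CPM in both inputs it was 0.15, and 0.105 without GMIP and EXTL3. IQCA1 did not reach that level in the cytosolic input. Input values alone made some of the largest corrected changes. CNRIP1 was at 11.7, 10.7 and 13.4 CPM in nuclear and 16.6 and 14.8 CPM in cytosolic pull-downs, with inputs of 1735 CPM (nuclear) and 19.4 CPM (cytosolic). RGPD6, one of a family of near-identical genes, had inputs of 0.603 and 87.4 CPM and did not differ between the pull-downs beyond its spread (-0.03 ± 0.135).

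**Figure D4:**
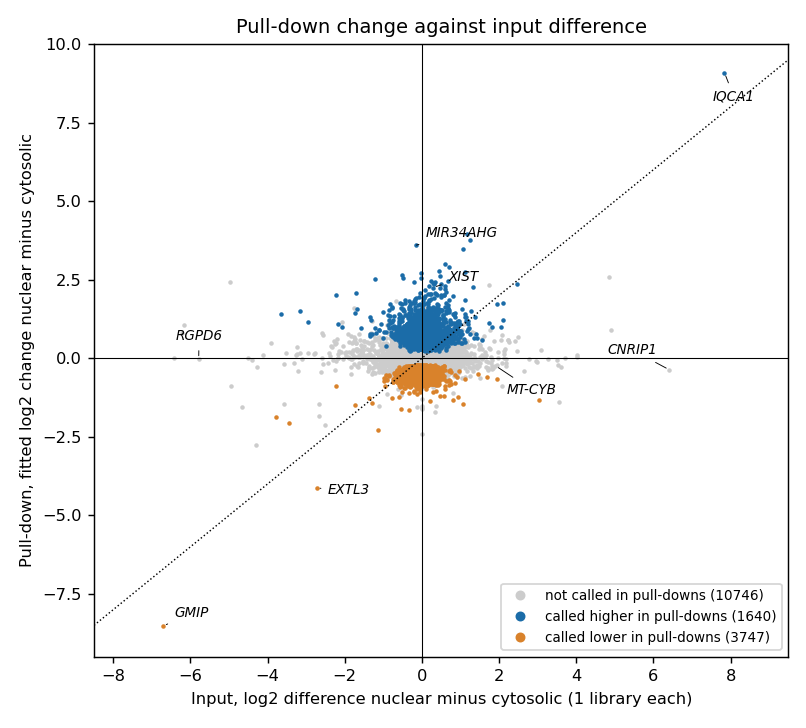
Fitted log2 change between pull-downs (vertical) against the log2 difference between the single inputs (horizontal), both nuclear minus cytosolic on log2(CPM + 1), for all genes tested. The dotted diagonal marks equal values. Called genes spread vertically around an input difference near 0, while IQCA1, GMIP and EXTL3 lie far out on both axes and CNRIP1 and RGPD6 on the input axis alone.

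Called mRNAs also differed in base composition. In protein-coding genes split into 4 equal bins of transcript GC content, the median change was -0.28, -0.22, -0.11 and 0.05 from the lowest to the highest bin. The share called higher was 3.09%, 4.75%, 9.53% and 17.2%, and the share called lower was 41.3%, 35.6%, 22.1% and 7.04%. The inputs showed no such order, with medians of -0.05, 0.01, 0.01 and -0.03. Genes of long span were called higher less often, in 13.6%, 11.9%, 6.27% and 2.80% of 4 equal bins from short to long. Among lncRNAs, GC content made little difference, with 19.6%, 21.2%, 18.7% and 21.4% called higher. Equal bins of lncRNA transcript length, from short to long, had 15.7%, 17.9%, 18.9% and 28.3% called higher. After removal of a length and GC trend within each library, 473 lncRNAs were higher and 54 lower, and 79 ribosomal protein mRNAs were lower.

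**Figure D5:**
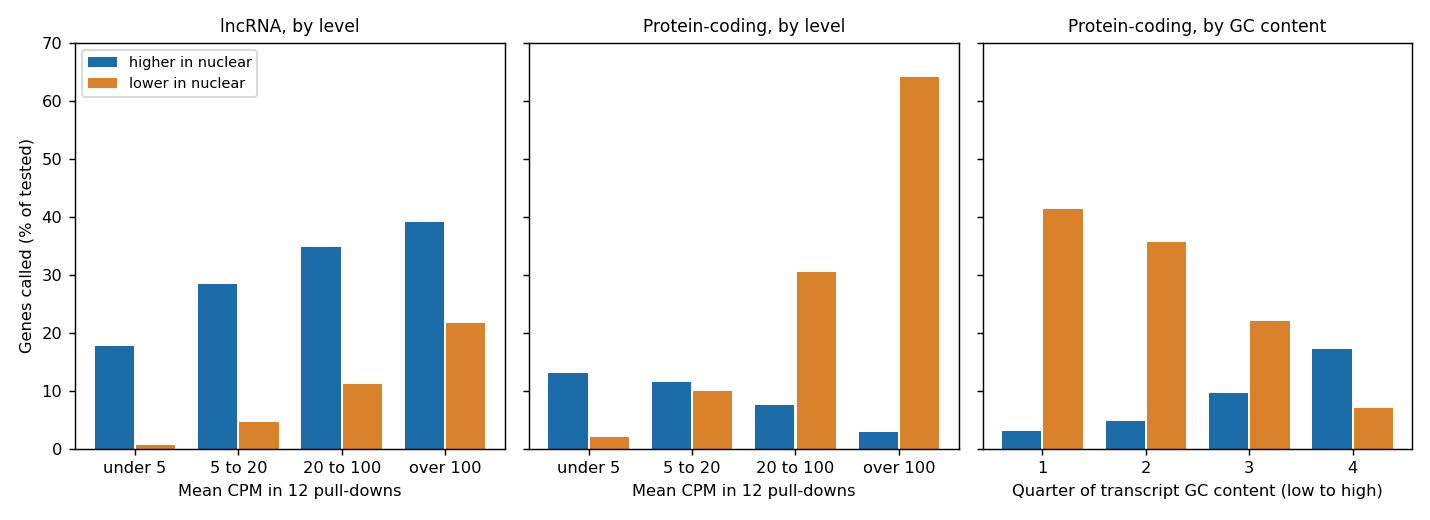
Percent of tested genes called higher (blue) and lower (orange) in nuclear pull-downs, for lncRNAs and protein-coding genes by mean CPM over the 12 pull-downs, and for protein-coding genes by 4 equal bins of transcript GC content. Among lncRNAs higher calls exceed lower calls at every level, whereas among protein-coding genes lower calls reach 64.2% above 100 CPM and 41.3% in the lowest GC bin.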

How the data were processed

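RNA was sequenced from HEK293T cells in 16 libraries, 12 pull-downs and 4 inputs. The deposited table holds log2 values of filtered, TMM-normalized CPM, per the labels, and the submitters' processing notes name STAR 2.7.9a, Salmon 1.4.0, limma and GRCh38 without a role for each. Of 39823 entries, 14906 held no value and 39 were repeats, which left 24878 genes. The lowest log2 value, -2.5907 in each library, equals log2(0.166). This constant was subtracted after raising 2 to each deposited log2 value, which gave CPM. Between 69.1% and 84.2% of values per library were whole multiples of its smallest step (tolerance 0.01), too few for a count test. The step gave the depths, and 1 read was worth 0.0541 to 0.154 CPM. Floors of 3 reads cover counting error only.

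Genes that reached 1 CPM in 2 or more of the 12 pull-downs entered a single fit of 5 groups on log2(CPM + 1), a scale that understates changes of low genes. The fit used limma (version 3.58.1, R version 4.3.3) with a mean-variance trend. The input-corrected fit added the 4 inputs, each assumed to vary like the pull-downs. On simulated data with the fitted spread, the test was checked with 100 genes changed 2-fold and 100 changed 4-fold. Coordinates, spans and GC content come from GENCODE 29 on GRCh38 (24085 of 24878 genes matched, 96.8%), with GC content and length as medians over annotated transcripts. Shares used Python 3 with scipy's exact permutation test.

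Named genes were the 10 largest rises and falls among called genes without overlap and with at least 5 CPM in the higher group, over all genes, among lncRNAs and after input correction, and up to 4 per list or class and direction. MALAT1, NEAT1, NORAD, CLK1, CCNL1, EEF1A1, ACTB, GAPDH and mitochondrial genome mRNAs were exempt from this rule. Other members (MIR222HG, MIR22HG, MIR4453HG, MIRLET7BHG, MIAT, SNHG17, CLK2, CLK3, PNISR, RBM5, DDX39B, DDX5, RPS19, SCARNA12, RNU6-9 and CD14) were named after their values were seen. The comparison, members and gene lists were chosen with earlier results of these data known. Alternatives were other scalings, pseudocounts, filters, moderation, fewer libraries, length and GC correction, a replicate block, a minimum fold and leaving out each library.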

Additional observations from a re-analysis of the deposited data

Results flagged for a closer look

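The difference between nuclear and cytosolic BS2 was larger or smaller in the pull-downs than in the inputs for 576 genes by limma's test of that difference, 272 of them with a higher and 304 with a lower value after input correction. Each of these rests on 1 nuclear and 1 cytosolic input. The counts without 1 library ran from 100 to 521 higher and from 45 to 938 lower, and their part in single calls was not tested. Of the 1640 called rises in the pull-downs, 38 were also at least 2-fold higher and 22 at least 2-fold lower in the nuclear input than in the cytosolic one. Over all 16133 genes tested, 199 (1.23%) and 240 (1.49%) differed so between the inputs.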

How the results depend on the processing

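Pull-down counts of genes higher and lower were 3012 and 936 with a common total, 3005 and 943 without mitochondrially encoded genes in it, 2114 and 2189 with median-of-ratios scaling, 1788 and 1708 with quantile normalization, 1377 and 2304 with the 5 libraries only, and 40 and 2 for a minimum 2-fold change. Leaving out 1 library gave 797 to 1727 higher and 1460 to 4349 lower.

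Protein-coding counts in the same order were 2459 and 930, 2457 and 937, 1642 and 2171, 1490 and 1639, 972 and 2279, and 21 and 2, with 569 to 1338 and 1452 to 4296 when 1 library was left out. For lncRNAs, falls were 6, 6, 18, 69, 25 and 0, rises were 19 with a minimum 2-fold change and 193 with at least 5 CPM, and leaving out 1 library gave 226 to 385 rises and 8 to 52 falls. Among lncRNAs overlapping no protein-coding gene the counts were 161 and 16.

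Input-corrected counts were 472 and 111 (common total), 429 and 123 (the same without mitochondrially encoded genes), 338 and 148 (median-of-ratios), 287 and 166 (quantile), 111 and 46 (the 5 libraries and 2 inputs only), 492 and 825 (length and GC trend removed), and 12 and 3 (2-fold minimum). Without a trend in the moderation 93 were lower. Leaving out 1 library gave 100 to 521 and 45 to 938.

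Replicate numbers are shared by the groups, but no label says that they pair the samples. Deviations from the group means correlated at -0.247 for number 1 and -0.00562 for number 2. These values cannot settle pairing, because the deviations of the 2 cytosolic libraries are equal and opposite. Codes in the sample titles also number the cytosolic libraries otherwise than their replicate numbers. With a replicate block the counts were 1592 and 3967 in the pull-downs and 379 and 616 after input correction. With the block and length and GC correction they were 1746 and 4527, and 557 and 1213.

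Quantile normalization turned the direction of MACROH2A1 (0.0095), MT-RNR1 (0.0178), NORAD (0.0658), SRSF1 (0.157), TRA2B (0.0730), PSAT1 (0.1005) and XBP1 (0.0818). The common total turned PSAT1 (0.0225, and 0.0222 without mitochondrially encoded genes) and XBP1 (0.0233 and 0.0230). The cause was not tested. Over all alternatives, named genes kept direction and side of the threshold in 3730 comparisons, lost the call in 556, gained it in 15 and turned in 11.

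Fits without a cytosolic library assume that the other varies like the remaining groups. No fold is given between genes below 3 reads. Depth limits many lncRNAs, since 1654 of 2097 had a mean under 5 CPM.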

Other observations

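Among nuclear chromosomes, 16, 17, 19 and 22 had the highest median changes between the pull-downs, at 0.03, -0.04, 0.0020 and 0.04, and the highest shares of genes called higher, except that chromosome 20 (11.9%) lay above chromosome 19 (11.5%). Chromosomes X, 4 and 5 had the lowest medians, at -0.21, -0.21 and -0.21.

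Of 15 tested interferon-response mRNAs, 4 were higher and 3 lower (26.7% and 20%, beside 10.2% and 23.2% of all genes). Under the common total 4 were higher and 0 lower by limma, and without cytosolic replicate 1 or cytosolic replicate 2 there were 1 or 0 lower by limma. IRF9, a transcription factor of the interferon pathway, was at 7.09, 5.66 and 4.88 CPM in nuclear and 1.92 and 1.95 CPM in cytosolic pull-downs, a change of 1.22 ± 0.176 (limma adjusted p = 0.000235). STAT2, its partner, changed by 0.73 ± 0.110. IFIT1 changed by -0.66 ± 0.175, and lost its call under the common total and without either cytosolic library.

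Among 30 replication-dependent histone mRNAs, which usually lack a poly(A) tail and share near-identical copies, 4 were higher (13.3%, beside 10.2% of all genes) and 1 lower, and 1 or 2 were higher without cytosolic replicate 1 or cytosolic replicate 2. H4C8 was at 10.7, 11.6 and 13.6 CPM in nuclear and 5.99 and 7.499 CPM in cytosolic pull-downs, a change of 0.74 ± 0.187, and it was not called without cytosolic replicate 1. Of 11 replication-independent histone mRNAs 5 were lower (45.5%, beside 23.2% of all genes) and none higher by limma, with H3-3A at -0.77 ± 0.136. With a common total 1 was lower, and with quantile normalization 1 was lower and 1 higher. Without cytosolic replicate 1 the count was 2 and without cytosolic replicate 2 it was 1.

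Of 56 kinesin and centromere mRNAs, 19 were lower (33.9%, beside 23.2% of all genes) and 4 higher (7.14%, beside 10.2%). With a common total 4 were lower and 5 higher, and 10 and 7 were lower without cytosolic replicate 1 and cytosolic replicate 2. The rises were CENPT at 0.92, KIF5A at 0.43, KIF22 at 0.40 and KIF18B at 0.35. KIF22 was not called without cytosolic replicate 1, and KIF5A and KIF18B not without either cytosolic library or nuclear replicate 2. KIF5A also lost its call without nuclear replicate 1 and KIF18B without nuclear replicate 3. CENPT, a kinetochore protein mRNA, was at 53.9, 53.7 and 69.8 CPM in nuclear and 29.6 and 31.7 CPM in cytosolic pull-downs, a change of 0.92 ± 0.129.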
